A study of Mus musculus with 11 samples.

Results

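The first hair cells of the mouse cochlea were defined here as the cells of the embryonic day 14 (E14) libraries that held at least 1 unique molecular identifier (UMI, the tag that marks 1 captured transcript) of Atoh1. They also had to hold at least 1 UMI of Pou4f3, Ccer2, Acbd7, Gfi1 or Lhx3. There were 69 such cells of 5253 at E14 and of 30634 in the whole series. Replicate 1 gave 26 of 2198 cells, a share of 1.18% with an exact Clopper-Pearson 95% interval of 0.774% to 1.73%, and replicate 2 gave 43 of 3055, a share of 1.41% with an interval of 1.02% to 1.89%. They were compared with 437 prosensory cells of the same libraries, 207 and 230, which held no Atoh1 and at least 1 UMI of Fgf20, Fgfr3 or Prox1. The cells were chosen by the measured UMIs of these 9 genes, so the levels of those genes are described without a test and no result rests on them.

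Hair cells are the mechanosensory cells of the organ of Corti, the strip of epithelium along the floor of the cochlear duct that detects sound. They and their supporting cells arise from a common prosensory domain, whose cells leave the cell cycle before either fate appears. Atoh1, a basic helix-loop-helix transcription factor that binds E-box motifs, is required for the hair cell fate. A cell that starts on that fate presents Notch ligands, and Notch signalling in its neighbours holds back Atoh1 there through Hes and Hey repressors, a process named lateral inhibition. Differentiation begins near the base of the duct, on its medial side, where inner hair cells form, and spreads along the duct and to the outer hair cell rows.

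The samples were 11 droplet libraries of dissociated cochlear duct floor from wild-type CD1 mice, 2 at E14, 3 at E16, 4 at postnatal day 1 (P1) and 2 at P7. Each embryonic library was made, according to the study's methods, from the pooled cochleae of pups of either sex from a single pregnant female, so the library was the replicate. The methods call the replicates of an age independent collections. No group carried a transgene, a deletion or a treatment. Levels are means over cells of UMIs scaled to 1000000 per cell (CPM), 1 profile per class and library, and fold changes are on the scale log2(CPM + 10), which understates the change of low genes.

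Hair cells were somewhat deeper than the rest. Their median UMI count was 4877 in replicate 1 and 5254 in replicate 2, against 4138 and 4285.5 in prosensory cells and 3507.5 and 3317 over all E14 cells. At an equal depth of 1500 UMIs, hair cells held a median of 994 and 982 genes and prosensory cells 990 and 986. More than 3000 genes were found in 8 and 17 hair cells and in 61 and 73 prosensory cells. The paper's methods give 3000 genes, with a limit on UMIs, as an upper bound for cells, yet the deposited values hold these cells. The 2 E14 libraries shared 11 cell barcodes, and none belonged to a hair cell. Doublets were not screened.

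Of the gate genes, Pou4f3, a POU-domain factor needed for hair cell survival, was held by 66 of the 69 cells, and Ccer2 by 58. Acbd7 was held by 21, Gfi1, a zinc finger repressor of the hair cell lineage, by 10, and Lhx3, a LIM homeodomain factor, by 7. A single gate marker beside Atoh1 was found in 11 cells, 33 held 2 of the 5 markers, 16 held 3, 8 held 4 and 1 cell held all 5. Atoh1 itself stood at a median of 4 UMIs per hair cell in replicate 1 and 2 in replicate 2. At the edge of the gate, 7 hair cells held 1 UMI of Atoh1 and 1 marker. Just outside it, 60 cells held Atoh1 and none of the markers, and 15 held at least 2 markers without Atoh1. The cells just outside with Atoh1 had 84.3 and 54.9 CPM of Selenom and 290.2 and 274 CPM of Pcp4, while those with markers and no Atoh1 had 441 and 907 CPM of Selenom and 1597 and 901 CPM of Pcp4. In the gate, the levels were 1618 and 1329 CPM of Selenom and 2546 and 2675 CPM of Pcp4.

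Do the gated cells carry a hair cell programme beyond the genes that chose them? Across 8821 genes, 263 were higher in hair cells (2.98% of the genes tested) and 275 were lower (3.12%) by limma with the library as a block and a Benjamini-Hochberg threshold of 0.05. With voom on summed UMIs in place of log2(CPM + 10), 448 were higher and 187 lower. The fit of 2 libraries leaves 1 residual degree of freedom, and the spread was taken wholly from the other genes of similar level. When each cell was thinned to 1500 UMIs and gated again, 16 and 19 hair cells and 107 and 135 prosensory cells remained. In them 45 genes were higher and 42 lower, and the parts of depth and of fewer cells cannot be told apart. Without the block the counts were 106 and 73, and without the mean trend 77 and 44. The filter, a mean of 10 CPM over the profiles, was met by 72 of the 263 higher genes through hair cells alone and by 58 of the 275 lower genes through prosensory cells alone. Such genes had only 1 direction open to them, so the counts of listed genes are descriptions. The hair cell and prosensory profiles did not overlap in 44.1% of the genes tested.

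**Figure D1:**
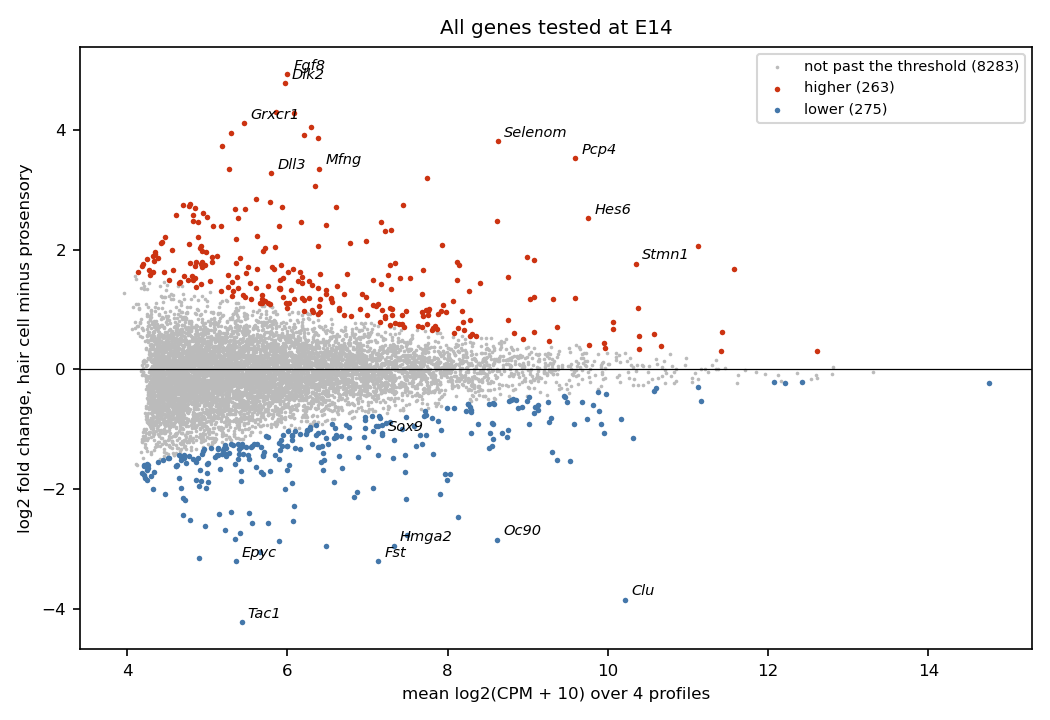
Log2 fold change between the hair cell gate and the prosensory gate at E14 (vertical axis, log2(CPM + 10) scale) against the mean level over the 4 profiles (horizontal axis) for the 8821 genes tested. Red points are the 263 higher and blue points the 275 lower genes, grey points did not pass the threshold, and named genes carry their symbol.

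Most of the early hair cell markers outside the gate that could be tested were higher in hair cells. Of 21 listed genes 15 were tested and 12 were higher, none lower, with a median log2 fold change of 2.47 beside -0.06 over all genes. The other 6 were under the filter of 10 CPM, which Pvalb, Gng8 and Thsd7b passed through their hair cell profiles alone. The list was drawn up with earlier results of these libraries known, so its direction is not independent evidence. Pcp4, a small calmodulin-binding protein, stood at 2546 and 2675 CPM in hair cells of replicates 1 and 2 and at 203 and 233 CPM in prosensory cells (log2 fold change 3.53 ± 0.14 SE, limma adjusted p = 1.6e-140). Selenom, a selenoprotein of the endoplasmic reticulum, had 1618 and 1329 CPM against 102 and 89.04 (log2 fold change 3.81 ± 0.17 SE, limma adjusted p = 8.65e-100). In both genes every hair cell profile lay above every prosensory profile, 11.98-fold and 15.4-fold in the means. The profiles did not overlap, in either direction, in 44.1% of all genes tested. Rasd2, a small GTPase, had 328 and 293 CPM against 17.03 and 7.83 (log2 fold change 3.86 ± 0.31 SE, limma adjusted p = 1.64e-32). Pvalb, the calcium buffer parvalbumin, had 134 and 111 CPM in hair cells and no UMI in either prosensory profile, at least 107-fold higher against a floor of 3 UMIs over the class (log2 fold change 3.72 ± 0.42 SE, limma adjusted p = 2.34e-16). Myo6, an unconventional myosin of the hair cell apex, had 279 and 206 CPM against 40.9 and 18.3 (log2 fold change 2.72 ± 0.29 SE, limma adjusted p = 5.55e-18). Cib2, a calcium-binding partner of the transduction channel, had 755 and 540.4 CPM against 69.3 and 52.8 (log2 fold change 3.20 ± 0.22 SE, limma adjusted p = 8.45e-45). The other members that rose were Rprm, Anxa4, Mgst3, Thsd7b, Calml4 and Gng8, with log2 fold changes from 0.98 (Calml4) to 2.48 (Thsd7b). Myo7a, the classical hair cell myosin, was too low to test, with 0 and 19.5 CPM in hair cells. Barhl1, a homeobox factor kept in hair cells, was just detected, at 32.2 and 15.7 CPM against none.

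The share of cells with a UMI was compared at equal depth. At 1500 UMIs per cell, Pcp4 was found in 80.8% and 79.1% of hair cells and in 18.4% and 22.2% of prosensory cells. Cells with at least 10 UMIs of Oc90, a roof gene of the duct, gave 3.08% and 3.98%, taken as the background in a cell type outside both gates (median UMIs 4569 and 4424). Without thinning, Pcp4 was found in 96.2% and 95.3% of hair cells. Fgf8 was found in 30.8% and 37.2% of hair cells at 1500 UMIs, with exact 95% intervals of 14.3% to 51.8% and 23.0% to 53.3%. In prosensory cells the Fgf8 share was 0 of 207, which allows up to 1.77% by the exact interval, and 0.870%. Intervals cover counting error only.

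Among transcription and RNA factors of hair cells, 16 of 32 listed genes were tested, 6 were higher and none lower. Of the 6, Casz1, Rbm24, Srrm4, Bcl11b and Barhl1 passed the filter through hair cells alone. Hes6, a Hes family member that favours differentiation and is a known Atoh1 target, had 2445 and 1731 CPM in hair cells and 364 and 335 in prosensory cells (log2 fold change 2.52 ± 0.13 SE, limma adjusted p = 2.98e-79). At 1500 UMIs it was found in all 26 hair cells of replicate 1 and in 81.4% of those of replicate 2, against 28.5% and 27.4% of prosensory cells. Cells with at least 10 UMIs of Oc90 gave 12.3% and 9.76%. Casz1, a zinc finger factor, had 116 and 111 CPM against 3.13 and 1.14 (log2 fold change 3.35 ± 0.41 SE, limma adjusted p = 7.89e-14). Rbm24, an RNA-binding protein that steers hair cell splicing, had 74.5 and 51.2 CPM against 0 and 1.31 (log2 fold change 2.76 ± 0.47 SE, limma adjusted p = 2.47e-07). The splicing factor Srrm4, needed for neuronal and hair cell microexons, had 20.6 and 30.5 CPM against 2.25 and 0.51 (log2 fold change 1.63 ± 0.52 SE, limma adjusted p = 0.0334). Several factors of this list, Insm1 and Neurod6 among them, were not analysed here.

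Dll3, Jag2 and Dll1 were higher in hair cells. They were 3 of the 4 Notch ligands tested, and all 3 passed the filter through hair cells alone. Dll3, a ligand-like protein that acts inside the cell that makes it, had 245 and 108 CPM against 13.8 and 3.51 (log2 fold change 3.27 ± 0.36 SE, limma adjusted p = 2.8e-17). Jag2, the hair cell Jagged ligand, had 87.6 and 60.2 CPM against 8.90 and 3.25 (log2 fold change 2.39 ± 0.42 SE, limma adjusted p = 1.09e-06), and Dll1, the other ligand of lateral inhibition, 32.7 and 50.9 against 6.10 and 3.83 (log2 fold change 1.77 ± 0.47 SE, limma adjusted p = 0.00413). The Dll1 call was lost in 7 of 19 alternatives, lateral prosensory cells among them. Jag1, which marks the prosensory domain and later the supporting cells, had 23.8 and 26.4 CPM against 34.6 and 32.1 and did not pass (limma adjusted p = 0.815). Mfng, a Fringe glycosyltransferase that modifies Notch, rose from 23.2 and 10.8 CPM to 289 and 232 (log2 fold change 3.35 ± 0.31 SE, limma adjusted p = 1.4e-24). Its relative Lfng had 61.4 and 62.6 CPM in hair cells and 35.8 and 37.7 in prosensory cells (limma adjusted p = 0.394). Neurl1a, a ubiquitin ligase that prepares Notch ligands, had 34.3 and 42.3 CPM against 1.52 and 13.1 (log2 fold change 1.56 ± 0.46 SE, limma adjusted p = 0.0172), and this call was lost in 10 of 19 alternatives. Mfng and Neurl1a were the 2 of 10 receptors, Fringes and modifiers that passed, and Neurl1a met the filter through hair cells alone.

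Of 10 Notch target and Id genes tested, 1 passed, Sox9, a prosensory and supporting cell factor, which was lower at 52.8 and 146 CPM against 193 and 212 (log2 fold change -1.10 ± 0.25 SE, limma adjusted p = 0.000539). The Sox9 call was lost in 5 of 19 alternatives. The list had a median log2 fold change of 0.16. Over all genes tested 6.1% were called in either direction, near the 10.0% of this list. The few calls are therefore not a result about Notch targets. Hey2 had 15.4 and 10.1 CPM against 44.5 and 39.3 (limma adjusted p = 0.0754) and Hey1 158 and 172 against 336 and 187 (limma adjusted p = 0.103). Id1, an inhibitor of basic helix-loop-helix factors, had 466 and 346 CPM against 365 and 277 (limma adjusted p = 0.369). Hes5, the main Notch repressor of later supporting cells, was low in both classes, 5.003 and 19.7 CPM in hair cells and 11.3 and 4.62 in prosensory cells.

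A few of the promoters of these genes are shown because their genes carry the comparison and hold the E-box hexamer CAGCTG, which reads the same on both strands. The sequences are from RefSeq on GRCm38.p6, 120 bases each from within the 250 bases before a transcription start, 5′ to 3′ on the strand of the gene, with the hexamer in capitals.
Hes6, chr1:91413293-91413412, minus strand: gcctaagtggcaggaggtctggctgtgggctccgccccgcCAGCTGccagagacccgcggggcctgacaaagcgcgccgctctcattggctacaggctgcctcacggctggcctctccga
Dll1, chr17:15376985-15377104, minus strand: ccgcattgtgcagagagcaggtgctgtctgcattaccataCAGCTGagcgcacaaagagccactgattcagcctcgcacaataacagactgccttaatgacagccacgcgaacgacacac
Dll3, chr7:28301786-28301905, minus strand: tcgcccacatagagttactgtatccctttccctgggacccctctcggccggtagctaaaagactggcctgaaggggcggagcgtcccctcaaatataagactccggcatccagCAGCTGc
Espn, chr4:152128972-152129091, minus strand: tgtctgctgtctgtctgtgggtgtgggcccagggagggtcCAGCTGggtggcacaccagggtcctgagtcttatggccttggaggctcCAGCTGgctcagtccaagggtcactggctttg
Lhfpl5, chr17:28575469-28575588, plus strand: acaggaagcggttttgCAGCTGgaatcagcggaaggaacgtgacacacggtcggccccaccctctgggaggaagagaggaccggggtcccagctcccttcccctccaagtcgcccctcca
Gadd45g, chr13:51846555-51846674, plus strand: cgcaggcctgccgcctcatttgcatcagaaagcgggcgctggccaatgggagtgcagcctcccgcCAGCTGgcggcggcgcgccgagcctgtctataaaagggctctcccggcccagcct

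The hexamer began -150 bases from the start in Hes6, -132 in Dll1, -7 in Dll3, -234 in Lhfpl5 and -55 in Gadd45g, and Espn held it at -126 and -78. These are the starts shown. RefSeq has a second start of Hes6 with the hexamer at -171, a second of Dll1 without it, and other starts of Espn, with it at -201 in 1 and without it in 1. Of the 263 genes higher in hair cells, 204 had a promoter in the RefSeq table, and 37 of these (18.1%) held CAGCTG in the 250 bases. The share was 13.2% of 6804 tested genes with a promoter, 15.5% of 219 lower genes and 14.7% of all 27025 genes in the table. The hexamer CAGATG, searched on both strands as CAGATG or CATCTG, was in 16.7% of the promoters of the higher genes and 11.2% of those of the tested genes. Its share was 14.2% in the lower genes and 16.3% in all genes in the table. A match of letters is not a binding site, and none of the shares was tested.

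The 10 largest rises were Fgf8, Dlk2, Lrrc73, Tmem255b, Grxcr1, Grp, Lhfpl5, Rasd2, Selenom and Pvalb. Fgf8 (chr19:45736798-45742915, GRCm38), a fibroblast growth factor made by inner hair cells that directs pillar cell formation, had 365 and 320.4 CPM in hair cells against 1.38 and 1.79, 216-fold in the means (log2 fold change 4.93 ± 0.34 SE, limma adjusted p = 2.9e-43). Dlk2 (chr17:46297421-46303271, GRCm38), a non-canonical relative of the Notch ligands, had 383 and 266 CPM against 0 and 4.47 (log2 fold change 4.77 ± 0.35 SE, limma adjusted p = 3.14e-40). Lrrc73 had 331 and 184 CPM against 3.67 and 2.55 (log2 fold change 4.30 ± 0.36 SE, limma adjusted p = 1.16e-30), and the membrane protein gene Tmem255b 408 and 207 against 9.52 and 2.14 (log2 fold change 4.29 ± 0.34 SE, limma adjusted p = 2.56e-34). Grp (chr18:65872820-65886596, GRCm38), which encodes gastrin-releasing peptide, had 357 and 267 CPM against 9.86 and 8.61 (log2 fold change 4.05 ± 0.32 SE, limma adjusted p = 5e-34). Fgf8, Dlk2, Lrrc73, Tmem255b and Grp were all under 10 CPM in both prosensory profiles and passed the filter through hair cells alone.

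Hair bundle and mechanotransduction genes were mixed at this age. Of 35 listed genes 17 were tested, of which 6 were higher and 1 lower. Grxcr1, Lhfpl5 and Tmie passed the filter through hair cells alone. Grxcr1 (chr5:68031835-68166398, GRCm38), a glutaredoxin-like protein needed for stereocilia width, had 270.3 and 109 CPM against 0 and 1.08 (log2 fold change 4.12 ± 0.39 SE, limma adjusted p = 6.01e-23). Lhfpl5, a subunit of the transduction complex, had 157 and 131 CPM and no UMI in prosensory cells, at least 126-fold higher (log2 fold change 3.94 ± 0.41 SE, limma adjusted p = 2.44e-19). Tmie, another subunit, had 132 and 109.9 CPM against 14.2 and 3.65 (log2 fold change 2.84 ± 0.38 SE, limma adjusted p = 8.67e-12), and the actin bundler Espn 197 and 109 against 14.8 and 13.02 (log2 fold change 2.72 ± 0.35 SE, limma adjusted p = 1.08e-12). Smpx, a small muscle and hair cell protein, and Eps8l2, a stereocilia tip protein, rose by 1.70 and 1.25 on the log2 scale. Eps8, whose product caps actin at stereocilia tips, had 0 and 28.8 CPM in hair cells against 38.8 and 40.3 (log2 fold change -1.33 ± 0.45 SE, limma adjusted p = 0.0479), and the 2 hair cell profiles were far apart. Cadherin 23 (Cdh23), a tip link protein, stayed under the filter at 17.8 and 5.19 CPM, and its partner protocadherin 15 (Pcdh15) had 50.7 and 40.1 CPM against 20.8 and 21.5 (limma adjusted p = 0.279).

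**Figure D2:**
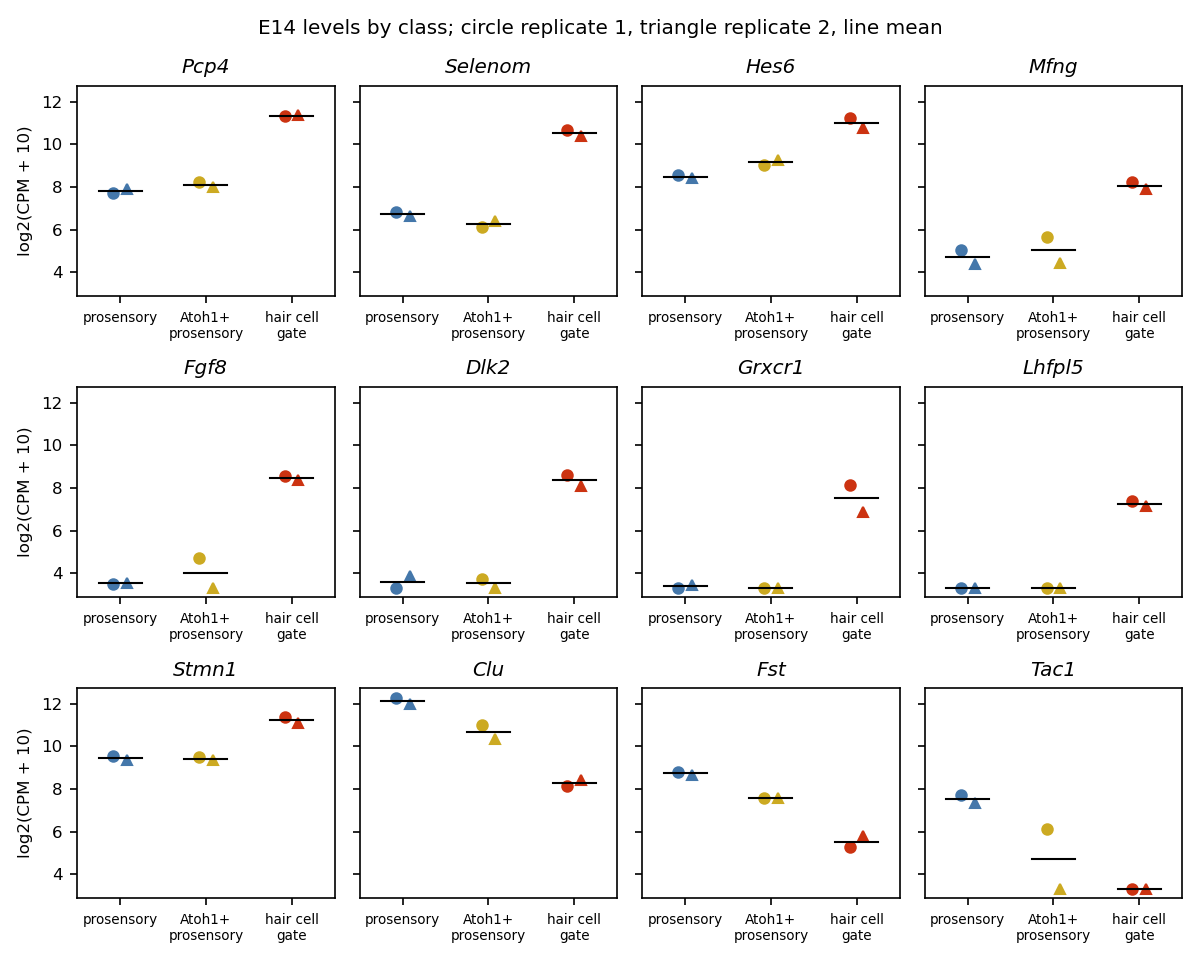
Levels of 12 genes at E14 as log2(CPM + 10) in prosensory cells (blue), Atoh1-positive prosensory cells without a gate marker (yellow) and the hair cell gate (red). Circles are replicate 1, triangles replicate 2 and lines their mean. In all 12 genes the hair cell and prosensory profiles are apart, as they are in 44.1% of all genes tested.

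Of 26 calcium buffers and synaptic genes, 19 were in the table, 7 passed the filter and 3 were higher. Calb2, the buffer calretinin, had 65.99 and 52.5 CPM against 0.422 and 2.92 (log2 fold change 2.57 ± 0.46 SE, limma adjusted p = 1.63e-06). It passed the filter through hair cells alone. S100a1, a calcium sensor, was already high in prosensory cells, 497 and 506 CPM, and reached 1160.3 and 1148 (log2 fold change 1.19 ± 0.14 SE, limma adjusted p = 3.87e-16). Nrxn3, a synaptic adhesion molecule, had 63.5 and 79.00 CPM against 24.6 and 31.3 (log2 fold change 1.10 ± 0.36 SE, limma adjusted p = 0.0435), a call lost in 10 of 19 alternatives. Calb1, calbindin, did not pass, at 7.88 and 0 CPM against 35.1 and 19.3 (limma adjusted p = 0.0625). Snap25, a protein of vesicle release, was not found in hair cells of either library, and Otof, otoferlin, only in replicate 1, at 34.9 CPM.

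In the list of neuron-like cytoskeletal and secretory genes, 4 of 16 tested were higher and 2 lower. Stmn1, a microtubule regulator, had 2656 and 2169.7 CPM against 746 and 655 (log2 fold change 1.77 ± 0.11 SE, limma adjusted p = 3.5e-53), and Map1b, which binds microtubules, 311 and 247 against 129.9 and 146 (log2 fold change 0.96 ± 0.22 SE, limma adjusted p = 0.000662). Tuba1a and Bex2 also rose, Bex2 by 0.50. Stmn2, a neuronal stathmin, had no UMI in hair cells and 28.01 and 23.96 CPM in prosensory cells (log2 fold change -1.85 ± 0.53 SE, limma adjusted p = 0.0129), a call lost in 8 of 19 alternatives. It passed the filter through prosensory cells alone. Rtn1 was lower, 125 and 122 against 322 and 291 CPM (log2 fold change -1.24 ± 0.22 SE, limma adjusted p = 1.5e-06). The neurofilament genes Nefm and Nefl, listed as neuron markers, were higher in hair cells, Nefm at 28.7 and 49.1 CPM against 0.723 and 0 (log2 fold change 2.21 ± 0.50 SE, limma adjusted p = 0.000452), and Isl1, listed there too, was lower (log2 fold change -0.69 ± 0.13 SE, limma adjusted p = 2.44e-06). Nefm and Nefl passed the filter through hair cells alone. Prph, a defining neuronal marker, was at 0 in both classes.

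Most kinocilium genes in the table were under the filter. Of 24 listed genes 20 were in the table, 7 passed the filter and 1 was higher, Tmem107, a protein of the ciliary transition zone, with 108 and 112 CPM against 33.7 and 34.2 (log2 fold change 1.45 ± 0.33 SE, limma adjusted p = 0.000421). The Tmem107 call was lost in 4 of 19 alternatives. Cetn2, a centrin of the basal body, had 199 and 138 CPM against 112 and 113 (limma adjusted p = 0.272), and Kif3a, a motor of ciliary transport, 19.9 and 23.7 against 43.9 and 48.9 (limma adjusted p = 0.269). The axonemal genes Pifo, Rsph1 and Dynlrb2 had at most 7.88 CPM in either hair cell profile.

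Genes of both the inner and the outer fate list were found at once in the pooled class. Of the inner list, Fgf8 and Brip1 were higher, Brip1 at 61.3 and 68.1 CPM against 16.6 and 34.6 (log2 fold change 1.12 ± 0.37 SE, limma adjusted p = 0.0478), a call that was lost in 12 of 19 alternatives. Tbx2, an inner hair cell determinant, did not pass, at 25.4 and 67.8 CPM against 26.4 and 41.04 (limma adjusted p = 0.816). Of the outer list, Hes6 and Bcl11b were higher, Bcl11b, a zinc finger factor found in outer hair cells, at 65.99 and 38.4 CPM against 6.69 and 4.11 (log2 fold change 1.98 ± 0.45 SE, limma adjusted p = 0.000421), a call lost in 4 of 19 alternatives. Fgf8 and Bcl11b passed the filter through hair cells alone. Hes6 was also found in 28.5% and 27.4% of prosensory cells at 1500 UMIs, so it does not mark outer fate alone. Ikzf2, a later outer hair cell regulator, had 0 and 15.2 CPM (limma adjusted p = 0.585). Single cells thinned to 1500 UMIs were then sorted by whether they held a UMI of the 5 inner or the 6 outer genes in the table. In replicate 1, 0 hair cells held inner genes only, 17 outer genes only, 9 both and 0 neither, and in replicate 2 the numbers were 4, 21, 14 and 4. Prosensory cells gave 10, 57, 10 and 130 in replicate 1 and 21, 61, 8 and 140 in replicate 2. With Hes6 and Tbx2 left out of the lists, a choice made after the values were seen, 9 and 17 hair cells held inner genes only, 2 and 4 outer genes only, 0 and 0 both, and 15 and 22 neither. Prosensory cells then gave 10, 9, 0 and 188 in replicate 1 and 19, 7, 1 and 203 in replicate 2. Fgf8 was held by 8 and 16 of the thinned hair cells, so the inner count is nearly a count of that gene. No test was run on these numbers.

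Most prosensory genes were not called, as was the case for all genes tested, which does not show that their levels were equal. Of 27 prosensory genes tested, 21 did not pass, 4 were lower and 2 higher. The shares called were 14.8% lower and 7.41% higher, beside 3.12% and 2.98% of all genes tested. Sox2, the factor that sets up the prosensory domain, had 214 and 216 CPM in hair cells against 242 and 87.4 in prosensory cells (limma adjusted p = 0.202), and the prosensory value of replicate 1 lay above both hair cell values. Cdkn1b, the cyclin-dependent kinase inhibitor p27, had 51.3 and 89.8 CPM against 93.8 and 92.2 (limma adjusted p = 0.586). Gata3, a factor of the whole cochlear floor, had 510.0 and 466 CPM against 654 and 626 (limma adjusted p = 0.126). The 4 lower genes were Spry1, an FGF feedback inhibitor, Etv4, an FGF target factor, Sox9 and Isl1. Etv4 had 24.2 and 19.2 CPM against 80.00 and 70.9 (log2 fold change -1.43 ± 0.37 SE, limma adjusted p = 0.00341), a call lost in 7 of 19 alternatives. Bmp2, a secreted bone morphogenetic protein, was higher, 163 and 116 CPM against 52.5 and 28.3 (log2 fold change 1.59 ± 0.31 SE, limma adjusted p = 1.46e-05). That call was lost and its sign turned once hair cells with a UMI of Fgf20, Fgfr3 or Prox1 were left out, with a log2 fold change of -0.70 over the remaining 28 cells (limma adjusted p = 0.806). Dusp6, another FGF feedback gene, rose by 0.89.

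**Figure D3:**
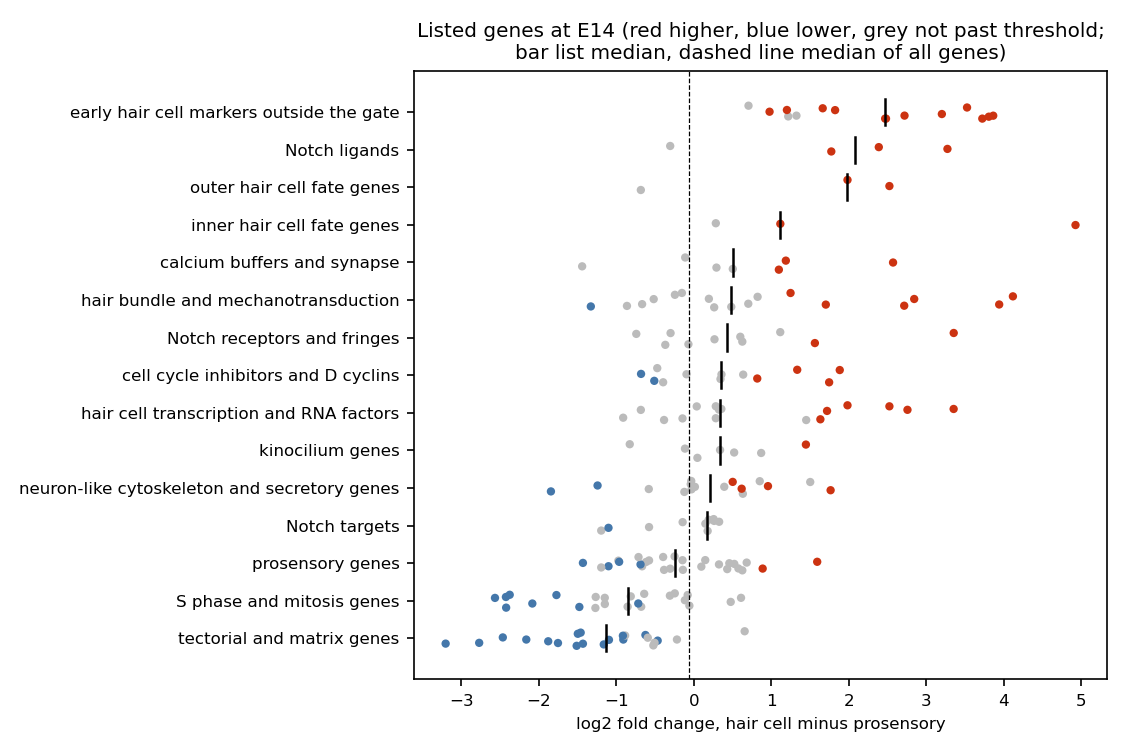
Log2 fold change between hair cells and prosensory cells at E14 for each tested gene of the 15 lists, ordered by list median (black bars). Red genes were higher, blue lower and grey did not pass, and the dashed line is the median of all genes, -0.06.

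Some genes of cell cycle arrest were higher and some of replication and mitosis lower. Of 12 inhibitors and D cyclins tested, 4 were higher, 2 lower and 6 did not pass. Gadd45g, a growth arrest gene, had 925 and 1011 CPM against 349.9 and 185 (log2 fold change 1.88 ± 0.16 SE, limma adjusted p = 9.81e-30). Cdkn1a, the inhibitor p21, had 477 and 536 CPM against 143 and 144 (log2 fold change 1.75 ± 0.20 SE, limma adjusted p = 2.34e-16), and Cdkn2d, p19, which keeps hair cells postmitotic, 79.8 and 92.1 against 35.3 and 21.9 (log2 fold change 1.33 ± 0.35 SE, limma adjusted p = 0.00418). Btg2, an antiproliferative gene, had 787 and 399.9 CPM against 352 and 279.9 (log2 fold change 0.82 ± 0.17 SE, limma adjusted p = 6.17e-05). The Cdkn2d call was lost in 6 and the Btg2 call in 5 of 19 alternatives. Ccnd1, cyclin D1, was lower (log2 fold change -0.68 ± 0.19 SE, limma adjusted p = 0.00878), as was Btg1, an antiproliferative relative of Btg2 (log2 fold change -0.51 ± 0.16 SE, limma adjusted p = 0.0348). Of 23 S phase and mitosis genes tested, none was higher, 8 were lower, 6 of them tested through prosensory cells alone, and 15 did not pass, with a median of -0.86. Pclaf, a replication factor, had 18.4 and 7.51 CPM against 81.7 and 180.0 (log2 fold change -2.57 ± 0.36 SE, limma adjusted p = 2.19e-10), and Birc5, survivin, 2.57 and 0 against 46.7 and 54.04 (log2 fold change -2.43 ± 0.48 SE, limma adjusted p = 1.9e-05). Ube2c and Cenpa, both of mitosis, fell by 2.42 and 2.38. When cells with a UMI of Mki67, Top2a, Cdk1, Ccnb1 or Ube2c were taken out of both classes, Pclaf, Birc5, Cenpa and Ube2c no longer passed, and 186 genes were higher and 185 lower over all genes. Ube2c was itself used to take out cells. Birc5 and Pclaf were also lost against lateral prosensory cells alone.

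Many matrix genes were lower in hair cells. Of 22 tectorial and extracellular matrix genes tested, 16 were lower and none higher, with a median of -1.13 against -0.06 over all genes. Of the 16, Otogl, Epyc and Fbln2 passed the filter through prosensory cells alone. Epyc, a small proteoglycan of the medial duct floor, had 2.57 and 4.43 CPM against 222 and 56.3 (log2 fold change -3.20 ± 0.40 SE, limma adjusted p = 3.73e-13), so the prosensory libraries also differed, and the call was lost against prosensory cells with Sox2 and after thinning. Cnmd, chondromodulin, had 102 and 117 CPM against 675 and 620.3 (log2 fold change -2.47 ± 0.20 SE, limma adjusted p = 1.66e-32), Lum, lumican, 50.3 and 68.3 against 504 and 418 (log2 fold change -2.77 ± 0.23 SE, limma adjusted p = 1.61e-29) and Mia 44.8 and 120.2 against 375 and 362 (log2 fold change -2.16 ± 0.23 SE, limma adjusted p = 7.05e-18). The tectorins, which form the tectorial membrane, fell less, Tecta by 0.91 and Tectb by 0.63. Collagen Col2a1 had 215 and 274 CPM against 529 and 584 (log2 fold change -1.16 ± 0.18 SE, limma adjusted p = 4.86e-09).

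The 10 largest falls were Tac1, Clu, Epyc, Fst, Metrnl, Scara3, Hmga2, Rxrg, Oc90 and Fxyd6. Tac1, Metrnl and Epyc were among the genes that passed the filter through prosensory cells alone. Tac1, the precursor of substance P, was at 0 in hair cells of both libraries and at 201 and 153 CPM in prosensory cells, at least 28.97-fold lower (log2 fold change -4.21 ± 0.40 SE, limma adjusted p = 1.05e-23). Clu, the secreted chaperone clusterin, went from 5023 and 4023 CPM to 274 and 336, 14.8-fold in the means (log2 fold change -3.84 ± 0.12 SE, limma adjusted p = 8.91e-227). Fst, an activin inhibitor of the lateral duct floor, had 28.6 and 45.3 CPM against 433 and 399 (log2 fold change -3.20 ± 0.26 SE, limma adjusted p = 1.02e-32), and Hmga2, a chromatin protein of immature cells, 32.3 and 69.6 against 397 and 478 (log2 fold change -2.94 ± 0.24 SE, limma adjusted p = 1.24e-30). Metrnl, a secreted hormone-like protein, was at 0 in both hair cell profiles. Oc90, which encodes the otoconial protein otoconin 90 and marks the roof, had 211 and 87.9 CPM against 1354 and 804 (log2 fold change -2.84 ± 0.17 SE, limma adjusted p = 1.02e-55). With the prosensory cells limited to those that hold Sox2, the Oc90 difference was 0.62 with a limma adjusted p of 0.323, and it was also lost against the medial prosensory cells alone.

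Markers of other cell types moved with the comparison. The summed level of 3 roof markers was 226 and 140.5 CPM in hair cells and 1415 and 850.4 CPM in prosensory cells. The 2 lesser epithelial ridge markers, Bmp4 and Fst, summed to 57.9 and 55.9 CPM in hair cells and 573 and 449 in prosensory cells. Of 7 mesenchyme markers, 5 and 4 were at 0 in hair cells, among them Col1a2 and Col3a1 in both libraries, and Dcn and Lum, which were lower in hair cells, carried the prosensory sum of 802 and 689 CPM. Of 5 glial markers, 3 and 2 were at 0 in hair cells, and the sums were 95.2 and 76.6 CPM in hair cells and 154 and 187 in prosensory cells. The 4 Kölliker's organ markers (the medial ridge of the duct floor) summed to 464 and 934 CPM in hair cells against 1176 and 1407, and 3 of the 4 were lower. Smoc2, 1 of 3 interdental markers, was higher in hair cells (log2 fold change 1.09 ± 0.26 SE, limma adjusted p = 0.000819). Blood markers had 3 UMIs in hair cells of replicate 1 and none in replicate 2, and endothelial markers 3 and 6 UMIs. Without the cells that held Oc90 in either class, 125 genes were higher and 116 lower. The part of other cell types in the result was otherwise not tested.

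How much of this was already present once Atoh1 was detected? Atoh1-positive prosensory cells, which held Atoh1 and a prosensory gate gene but none of the 5 markers, numbered 25 and 16. Across 8745 genes, 116 were higher in hair cells than in these cells (1.33%) and 81 lower (0.926%). Markers of other cell types moved too. The roof marker Oc90 was higher in hair cells, 211 and 87.9 CPM against 76.4 and 40.2 (log2 fold change 1.16 ± 0.25 SE, limma adjusted p = 0.0198), opposite to its direction against prosensory cells, and the interdental marker Smoc2 was higher, 274 and 137 against 60.6 and 18.6 (log2 fold change 2.19 ± 0.34 SE, limma adjusted p = 0.00161). Fst, of the lesser epithelial ridge, was lower, 28.6 and 45.3 against 184 and 179 (log2 fold change -2.05 ± 0.29 SE, limma adjusted p = 0.000653). Of the neuron markers Nefm was higher and Isl1 lower, by log2 fold changes of 2.26 and -0.73, and Tectb of Kölliker's organ was lower, at -0.76. The 3 roof markers summed to 226 and 140.5 CPM in hair cells and 82.1 and 74.4 in the Atoh1-positive cells, and their part in the other differences was not tested. Dlk2 had 3.20 and 0 CPM in the Atoh1-positive cells, Selenom 60.6 and 73.7, Rasd2 15.4 and 0 and Tmem255b none, and all 4 were higher in hair cells, Selenom with a log2 fold change 4.26 ± 0.25 SE, limma adjusted p = 3.52e-08. Fgf8 had 16.5 and 0 CPM there (log2 fold change 4.44 ± 0.50 SE, limma adjusted p = 9.4e-05), and Lrrc73 rose by 4.33. Of 16 early hair cell markers tested, 10 were higher in hair cells and none lower, and of 17 bundle genes 6 were. Among them Pvalb, Thsd7b, Grxcr1, Lhfpl5 and Tmie had passed the filter of the comparison with prosensory cells through hair cells alone. How many did so here was not computed. Such genes had only 1 direction open to them, so these counts are descriptions. Mgst3, a glutathione transferase, was called against prosensory cells but not here, with 602 and 811 CPM in the Atoh1-positive cells (limma adjusted p = 0.638). The difference between those 2 contrasts was not tested.

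The largest falls against the Atoh1-positive cells were Hmga2, Urah, Nptx2, Adamts2, Clu and Cd200. Clu was intermediate, 2054 and 1305 CPM in the Atoh1-positive cells, between 5023 and 4023 in prosensory cells and 274 and 336 in hair cells (log2 fold change -2.39 ± 0.16 SE, limma adjusted p = 3.68e-07). Nptx2, a secreted pentraxin, had 143 and 147 CPM in them and 16.8 and 19.05 in hair cells (log2 fold change -2.48 ± 0.34 SE, limma adjusted p = 0.000577), and Hmga2 298 and 441 (log2 fold change -2.68 ± 0.26 SE, limma adjusted p = 1.93e-05). None of 21 S phase and mitosis genes passed the threshold, which does not show equal levels, and of 21 matrix genes 6 were lower. With a pseudocount of 1 CPM, 53 genes were higher and 37 lower, without the filter 2 and none, and without the library block 62 and 23.

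Hair cells differed among themselves with the number of gate markers they held. In the 13 and 12 cells with 3 or more markers, Selenom stood at 2889 and 3119 CPM, against 411 and 785 in the 11 and 22 cells with 2. Grxcr1 stood at 541 and 376 CPM against 0 and 8.17, Lhfpl5 at 280.1 and 433 against 40.7 and 19.8 and Pvalb at 234 and 361 against 40.7 and 20.4. Each of these was higher in both libraries in the cells with more markers. Pcp4, by contrast, had 2332 and 3515 CPM against 3181 and 2995, and Hes6 2319 and 1867 against 2659 and 1941. The 9 cells of replicate 2 with 1 marker had 273 CPM of Selenom and 1035 of Hes6 and no UMI of Grxcr1, Lhfpl5, Pvalb or Rasd2. Median UMIs were 5067 and 7806 in the cells with 3 or more markers and 4106 and 4837 in those with 2. The part of depth in these values was not tested. The markers chose the cells, so these values are a description.

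Fgf8 also ran with the number of markers, at 25.2 and 178 CPM in cells with 2 markers and 709.6 and 769 in those with 3 or more, and a split by Fgf8 is therefore not separate from the split by markers. It was held by 10 and 20 hair cells, with median UMIs of 5142 and 7806, and not by 16 and 23, with 4484.5 and 4463. Selenom was at 3495 and 2579 CPM in the cells with Fgf8 and 446 and 243 in those without. Grxcr1 was at 662 and 221 CPM against 25.6 and 12.1, Lhfpl5 at 364 and 266 against 27.98 and 13.8, Pvalb at 259 and 195 against 55.7 and 38.4 and Tbx2 at 65.97 and 128 against 0 and 15.05. Bcl11b ran the other way, 0 and 5.73 CPM against 107 and 66.9, and so did Id3, 816 and 927 against 1954 and 1328, and Hey1, 96.9 and 100.2 against 196 and 234. Pcp4 was alike at 2559.7 and 2894 and 2538 and 2486 CPM, and Rasd2 was higher with Fgf8 in replicate 1 and lower in replicate 2. The split was made on a measured gene after its level was known, and no test was run on it.

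**Figure D4:**
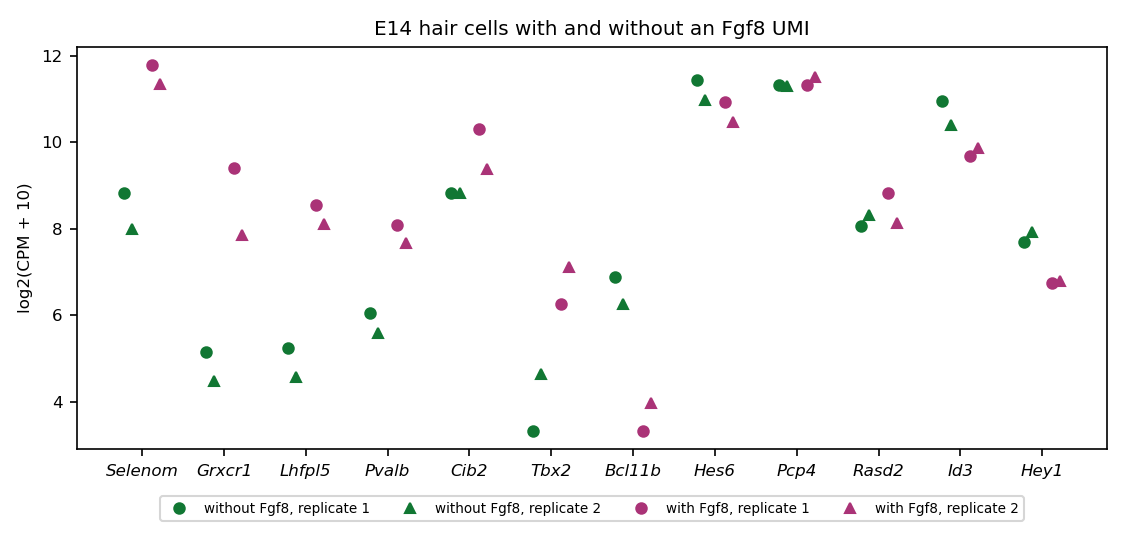
Levels of 12 genes as log2(CPM + 10) in E14 hair cells with an Fgf8 UMI (purple, 10 and 20 cells) and without (green, 16 and 23 cells), circles for replicate 1 and triangles for replicate 2. Selenom, Grxcr1, Lhfpl5, Pvalb, Cib2 and Tbx2 lie higher with Fgf8 in both libraries, and Bcl11b, Hes6, Id3 and Hey1 lower.

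The same gate took a larger share of cells 2 days later. It held 8.90%, 8.35% and 3.87% of cells in the 3 E16 libraries, from 5.60% to 8.34% in the 4 P1 libraries and 0.620% and 0.811% at P7, where it found 11 and 13 cells. The gate needs Atoh1, which the paper describes as transient in hair cells. The paper counted more hair cells at P1 and P7 than the gate held, so these are not shares of all hair cells. Median UMIs of the gated cells were 2390, 3705 and 4009 at E16. When cells were thinned to 1500 UMIs before gating, the E14 shares were 0.728% and 0.622% and the E16 shares 7.30%, 5.33% and 3.33%.

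Many genes of the cilium, the bundle and the synapse were lower in hair cells at E14 than at E16. Every age had its own libraries, so age and the collection of the libraries cannot be told apart, here or against P1. Across 9102 genes, 190 were higher at E14 (2.09%) and 352 lower (3.87%), 5.95% in all, in a fit over all ages. Without E14 replicate 1 the counts were 23 and 103, without E14 replicate 2 47 and 161, without E16 replicate 1 50 and 187, without E16 replicate 2 84 and 201, and without E16 replicate 3 108 and 275. Of 17 kinocilium genes tested, 10 were lower at E14 and none higher, and 7 of the 10, Dynlrb2, Pifo and Rsph1 among them, passed the filter through the later ages alone. The same held for 142 of the 352 lower genes. Dynlrb2, a dynein light chain, had 0 and 1.98 CPM at E14 and 156, 186 and 159.8 at E16 (log2 fold change -4.02 ± 0.36 SE, limma adjusted p = 8.31e-06), and Pifo, Rsph1 and Cetn2 had log2 fold changes of -2.67, -2.47 and -1.22. Of 21 early hair cell markers, 12 were lower at E14 and none higher, and Myo7a, Chgb and Crmp1 passed the filter through the later ages alone. Gng8, a G protein gamma subunit, had 21.3 and 28.1 CPM at E14 and 412, 516 and 821 at E16 (log2 fold change -4.04 ± 0.37 SE, limma adjusted p = 8.82e-06), Pvalb 134 and 111 and 1047, 1141 and 1150.3 (log2 fold change -3.09 ± 0.27 SE, limma adjusted p = 8.31e-06) and Selenom 1618 and 1329 and 3870.3, 3580.3 and 4871 (log2 fold change -1.47 ± 0.30 SE, limma adjusted p = 0.0066). In each of these every E14 profile lay below every E16 profile, where the profiles of the 2 ages did not overlap in 42.0% of the genes tested. Fgf8 ran opposite, 365 and 320.4 CPM at E14 and 241, 227 and 189 at E16, without passing (log2 fold change 0.63 ± 0.34 SE, limma adjusted p = 0.296). Among markers of other cell types, Nefm and Nefl of neurons were lower at E14 (log2 fold change -2.15 ± 0.38 SE, limma adjusted p = 0.00242 for Nefm), as were Hba-a1 of blood and Epyc and Calb1 of Kölliker's organ, while Tecta, also of that organ, was higher. Hba-a1, Epyc and Calb1 passed the filter through the later ages alone. The part of all these markers in the other differences was not tested.

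Of 23 bundle genes tested, 8 were lower at E14, Espn, Espnl, Grxcr1, Cdh23, Myo15, Fscn2, Lhfpl5 and Smpx, and Fscn1, another actin bundler, was higher. Of the 8, Myo15 and Fscn2 passed the filter through the later ages alone. Espn had 197 and 109 CPM at E14 and 428, 445 and 492 at E16 (log2 fold change -1.56 ± 0.30 SE, limma adjusted p = 0.00509). Of 16 calcium and synaptic genes, 6 were lower and none higher, among them Otof, Snap25 and Calb1, the last at 7.88 and 0 CPM at E14 and 139, 232 and 208 at E16 (log2 fold change -3.89 ± 0.44 SE, limma adjusted p = 6.68e-05). Of the 6, Calb1, Snap25 and Atp2b2 passed the filter through the later ages alone. In prosensory cells Calb1 also stood higher at E16, 138, 257 and 157 CPM against 35.1 and 19.3.

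The largest excesses of E14 hair cells were Atf3, Klf6, Plet1, Jun, Otol1 and Ntm. Klf6, a zinc finger factor, had 867 and 456 CPM at E14 and 64.8, 67.9 and 52.7 at E16 (log2 fold change 3.16 ± 0.34 SE, limma adjusted p = 3.93e-05). Jun, a subunit of the stress-responsive factor AP-1, had 2255 and 1599 CPM and 177, 280.0 and 411 (log2 fold change 2.75 ± 0.48 SE, limma adjusted p = 0.00222), and Atf3, a stress-induced factor, 266 and 274 and 9.33, 28.3 and 29.7 (log2 fold change 3.18 ± 0.49 SE, limma adjusted p = 0.000892). Prosensory cells showed the same order, with 3006 and 2523 CPM of Jun at E14 and 932, 1029.8 and 1125 at E16, and 1159.6 and 1097 and 283, 292 and 378 CPM of Klf6. Otol1, a collagen-like otoconial protein, had 79.7 and 159 CPM in E14 hair cells, 159 and 201 in E14 prosensory cells and 10.4, 8.21 and 12.2 in E16 hair cells (log2 fold change 2.61 ± 0.40 SE, limma adjusted p = 0.000875). AC121965.1, an uncharacterised transcript, was lower at E14 in both classes, 31.5 and 27.99 CPM in hair cells against 490.2, 522 and 639.

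**Figure D5:**
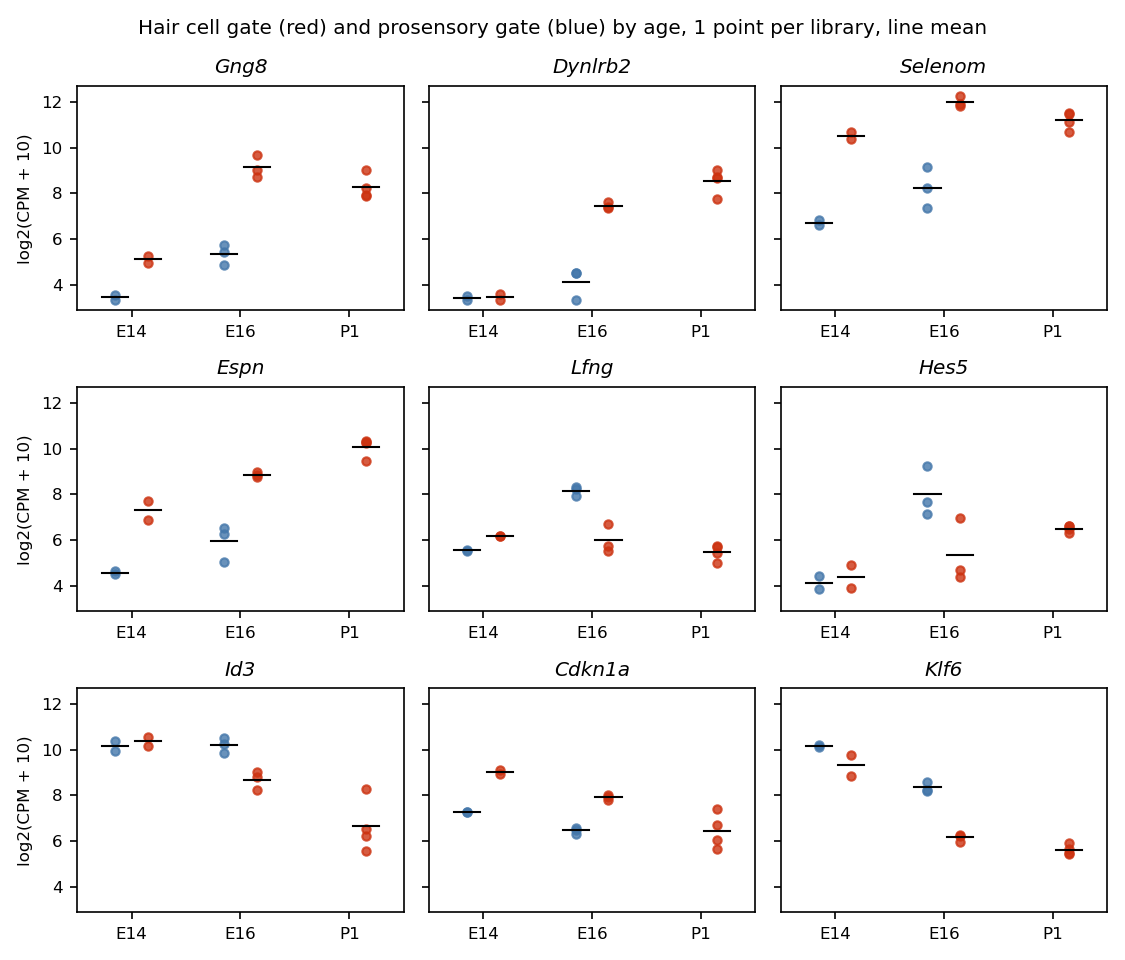
Levels of 9 genes as log2(CPM + 10) in the hair cell gate (red) at E14, E16 and P1 and in the prosensory gate (blue) at E14 and E16, 1 point per library with lines at the means. Gng8, Dynlrb2, Selenom and Espn are lower at E14 than at E16, and Lfng, Hes5 and Id3 differ between the classes at E16 more than at E14.

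Was the gap between hair cells and prosensory cells the same at both ages? The gate for prosensory cells was the same at E16, but the cells it held need not be alike. S100b, a gene of supporting cells, stood at 6.08 and 12.3 CPM in that class at E14 and 88.4, 99.3 and 149 at E16, and the kinds of cells in it were not tested. The interaction was fitted over 8983 genes, and the hair cell minus prosensory difference was more positive at E14 for 183 genes (2.04%) and more negative for 141 (1.57%), 3.61% in all. Without E14 replicate 1 the counts were 77 and 24, without E14 replicate 2 62 and 45, and without E16 replicate 2 67 genes were more negative. Of 11 Notch target and Id genes, 7 were more positive at E14 and none more negative: Nrarp, Id1, Hey1, Id3, Hes5, Id2 and Hes1. Of the Kölliker's organ markers Tecta and Tectb were more positive too and Calb1 more negative, and so was the neuron marker Nefm, with differences for Tecta, Tectb, Calb1 and Nefm of 1.15, 2.13, -1.52 and -1.83, and their part was not tested. Hes5 was at 5.003 and 19.7 CPM in hair cells and 11.3 and 4.62 in prosensory cells at E14. At E16 it was at 10.9, 16.00 and 114 CPM in hair cells and 130.4, 193 and 597 in prosensory cells (log2 fold change 2.93 ± 0.47 SE, limma adjusted p = 0.000971). Id3 was at 1516 and 1142 and 1342 and 987 CPM at E14, and at 433, 509.8 and 294 against 1215, 1464 and 928 at E16 (log2 fold change 1.72 ± 0.14 SE, limma adjusted p = 2.8e-07). Hes1, the other main Notch repressor, was at 549 and 271 and 539 and 214 CPM at E14 and at 37.03, 52.3 and 592 and 199, 205 and 2193 at E16 (log2 fold change 2.11 ± 0.23 SE, limma adjusted p = 1.34e-05), with E16 replicate 3 far above the other libraries in both classes. Hey1 had 65.9, 38.2 and 60.6 CPM in E16 hair cells and 309.9, 417 and 677 in E16 prosensory cells (log2 fold change 2.26 ± 0.35 SE, limma adjusted p = 0.000596).

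Prosensory genes showed the same sense, 11 of 27 more positive at E14 and none more negative. Sox2 was at 171, 169 and 175 CPM in E16 hair cells and 429.9, 385 and 329 in E16 prosensory cells (log2 fold change 1.62 ± 0.31 SE, limma adjusted p = 0.00467). Jag1 was at 57.6, 48.2 and 29.6 CPM against 211, 205 and 171 at E16 (log2 fold change 1.62 ± 0.37 SE, limma adjusted p = 0.0156), and Cdkn1b at 16.7, 27.8 and 36.6 against 144, 122 and 119 (log2 fold change 1.54 ± 0.40 SE, limma adjusted p = 0.0335). Lfng had 35.98, 44.2 and 94.5 CPM in E16 hair cells and 235, 309 and 292 in E16 prosensory cells (log2 fold change 2.79 ± 0.36 SE, limma adjusted p = 9.31e-05). In all 4 genes the prosensory profiles rose above every hair cell profile at E16, whereas at E14 Sox2 overlapped, Lfng lay higher in hair cells, and Jag1 and Cdkn1b already lay higher in prosensory cells. The share of all genes whose classes lie apart at E16 was not computed, and at E14 it was 44.1%. These 4 genes were named from those that passed the interaction, so their separation is a description. Of 16 kinocilium genes, 6 were more negative at E14 and none more positive. All of the 6 but Tekt1, namely Dynlrb2, Pifo, Rsph1, Cfap126 and Cfap77, averaged under 10 CPM in E14 hair cells. Of the early hair cell markers, 4 of 19, Chgb, Crmp1, Gng8 and Calml4, were more negative and Pcp4 more positive (log2 fold change 1.10 ± 0.21 SE, limma adjusted p = 0.00401). Chgb and Crmp1 were also under 10 CPM in E14 hair cells. Genes so low had little room in the other direction, so these counts are descriptions. The 4 Notch ligands gave 1 call, Jag1, and Dll3, Dll1 and Jag2 did not pass.

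By P1 the distance was larger. Of 9102 genes, 724 were higher at E14 (7.95%) and 1076 lower (11.8%), and without E14 replicate 1 292 and 618, without E14 replicate 2 333 and 644. Gadd45g had 925 and 1011 CPM at E14, 236, 255 and 312 at E16 and 51.5, 30.97, 76.2 and 109 at P1 (log2 fold change 3.78 ± 0.60 SE, limma adjusted p = 0.00027), and Id3 1516 and 1142 CPM at E14 and 299, 37.6, 83.3 and 64.99 at P1 (log2 fold change 3.72 ± 0.55 SE, limma adjusted p = 0.000142). Fn1, fibronectin, had 188 and 193 CPM at E14 and 5.65, 1.61, 4.94 and 12.2 at P1 (log2 fold change 3.68 ± 0.55 SE, limma adjusted p = 0.000155), and the tight junction gene Cldn6 850.0 and 675 and 69.02, 80.3, 61.9 and 18.97 (log2 fold change 3.63 ± 0.46 SE, limma adjusted p = 2.52e-05). Of 24 prosensory genes 14 were higher at E14 and 1 lower, and Sox2 had 46.7, 81.2, 65.1 and 75.5 CPM at P1. On the other side, 18 of 21 early hair cell markers, 12 of 17 kinocilium genes and 10 of 23 bundle genes were lower at E14. Under 10 CPM in the E14 hair cells were 5 of the 18 markers, 7 of the 12 kinocilium genes, 2 of the 10 bundle genes and 464 of all 1076 lower genes. Markers of other cell types also moved, with Oc90 of the roof, Dcn of mesenchyme, Sox10 of glia, Tecta and Isl1 higher at E14, by 2.39, 1.62, 2.105, 1.31 and 1.57 on the log2 scale, and Nefm, Nefl, Epyc and Calb1 lower, and their part in the other differences was not tested. Sncg, a synuclein, had 0 and 9.98 CPM at E14 and 587, 517, 492 and 349 at P1 (log2 fold change -5.11 ± 0.33 SE, limma adjusted p = 1.57e-08), and Ppp1r27 10.9 and 11.5 and 899, 809, 905 and 1192 (log2 fold change -5.49 ± 0.28 SE, limma adjusted p = 1.53e-09). Rprm, a p53 target named among the hair cell markers, did not pass between E14 and P1, with 1128 and 901 CPM at E14, 883, 929.9 and 1041 at E16 and 1706, 1316, 1009 and 855 at P1 (log2 fold change -0.22 ± 0.27 SE, limma adjusted p = 0.604).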

How the data were processed

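Cells of the cochlear duct floor were isolated with thermolysin and dissociated with papain according to the labels, where the methods give trypsin, and captured with the 10x Chromium system in 11 libraries. The authors aligned reads to mm10 and counted UMIs with Cell Ranger 2.1.1, then filtered and normalized with Seurat 2.0, according to their processing notes and methods. The deposited values are natural logs, for each cell and gene, of 1 plus 10000 times the share of the cell's UMIs. UMI counts were worked back from them, and 100% of the values came out whole within 2%. Cells were placed in libraries by their deposited names, and no column was left without a library. No doublet caller was run here. Depth is given with the results, and intervals cover counting error only.

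Cells were gated on measured UMIs of 9 genes, which were removed before testing. Each class and library gave 1 profile, the mean over at least 5 cells of per-cell CPM. Profiles were fitted with limma 3.58.1 (R 4.3.3) on log2(CPM + 10) with a mean trend, for genes averaging 10 CPM or more over the profiles, with the library as a block where classes came from the same library. The 2 classes of a library came from the same pooled animals, and the library difference correlated between them across 8821 genes (r = 0.15, genes not being independent). P-values were adjusted by Benjamini-Hochberg over all genes tested, with a threshold of 0.05. The scripts were tested on simulated data. Shares were computed with scipy 1.17.1.

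The genes named are the 10 largest rises and 10 largest falls that passed with the same sign in both libraries, the 4 largest changes of each list, and 6 in each direction for the other comparisons. Gm-numbered, Rik, mitochondrial, ribosomal protein and haemoglobin genes, Xist and Tsix were not named. Further list members were named after their values were seen. The members, lists and tests were chosen with earlier results of these data known. Coordinates are from GENCODE vM21 (GRCm38) and promoters from RefSeq (GRCm38.p6). Alternatives were another pseudocount, filter, averaging, scaling, block, trend, gate and depth, and each library left out. A few alternatives were added after the data were seen, namely prosensory cells with Sox2, no cells with Oc90, and hair cells without Fgf20, Fgfr3 or Prox1.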

Additional observations from a re-analysis of the deposited data

Results flagged for a closer look

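The hair cell minus prosensory difference was tested for a change between E14 and E16 in a single limma fit with an interaction term, and 26 of the 79 genes named for the first comparison or for this one passed. Over all genes tested, 3.61% passed. Values are the E14 difference minus the E16 difference on the log2(CPM + 10) scale. More positive at E14 were Hes5 (2.93), S100b (2.92), Serpine2 (2.89), Fam159b (2.83), Tns1 (2.81), Lfng (2.79), Hey1 (2.26), Jag1 (1.62), Bmp2 (1.496), S100a1 (1.25), Pcp4 (1.10), Stmn1 (0.91) and Id1 (0.89). Among these, S100b, a calcium-binding protein of supporting cells, had 14.9 and 23.1 CPM in E14 hair cells and 6.08 and 12.3 in E14 prosensory cells, and 5.21, 17.3 and 22.8 CPM against 88.4, 99.3 and 149 at E16. Serpine2, a secreted protease inhibitor, had 78.4 and 111 CPM against 169 and 139 at E14, and 9.82, 23.4 and 7.40 against 261, 281 and 225 at E16.

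More negative at E14 were Cdca3 (-3.93), Dynlrb2 (-3.32), Kcnmb2 (-2.90), Cthrc1 (-2.87), BC030867 (-2.72), Trnp1 (-2.68), Tac1 (-2.23), Ube2c (-2.22), Metrnl (-1.99), Birc5 (-1.92), Clu (-1.59), Calb1 (-1.52) and Nrxn3 (-1.36). Cdca3, a gene of mitotic entry, had 8.76 and 14.8 CPM in E14 hair cells and 32.7 and 38.7 in E14 prosensory cells, and 166, 115 and 91.8 CPM in E16 hair cells against 22.2, 6.89 and 1.09 in E16 prosensory cells. Kcnmb2, a subunit of calcium-activated potassium channels, had 0 and 2.22 CPM in E14 hair cells and 97.6, 86.9 and 78.1 at E16. The adjusted p-values of the 26 genes ran from 1.34e-06 for S100a1 to 0.0403 for Nrxn3. The 6 largest in each direction were named because they passed this test, so their passing was fixed in advance. Most of the 26 genes were picked for the size of this or the first difference.

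In the P1 hair cell gate, 1 value stood apart from the other 3 libraries by Dixon's ratio. Serpinh1, a collagen chaperone, had 89.2 CPM in replicate 1 and from 39.3 to 42.8 CPM in the others. Chance gives about 1 such case in 20 groups, and 13 groups were examined.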

How the results depend on the processing

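Counts are given as higher and lower genes. For hair cells against prosensory cells at E14 (263 and 275), voom gave 448 higher, no replicate block gave 106 and 73, no mean trend 77 and 44, lateral prosensory cells alone 172 and 137, thinning to 1500 UMIs 45 and 42, no cells over 3000 genes 150 and 163, no cells with Oc90 125 and 116, and hair cells without prosensory gate genes 112 and 121. The median of all genes was -0.13 after thinning and -0.17 in the last. Dropping the block or the trend leaves every fold change as it is, and 179 and 121 of 538 calls still passed. After thinning, which also left only 16 and 19 hair cells in the gate, 84 passed and 513 kept their sign. Of 54 named genes called, 40 to 54 still passed in the alternatives with a test other than thinning, and 22 after it. The calls lost most often, in 5 to 12 of 19 alternatives, were those of Brip1, Neurl1a, Nrxn3, Stmn2, Dll1, Etv4, Birc5, Cdkn2d, Btg2 and Sox9. Bmp2 turned to -0.70 in hair cells without prosensory gate genes and Oc90 to 0.62 against prosensory cells with Sox2. With a library left out no residual degree of freedom remains, so those are values without a test, and 527 (without replicate 1) and 535 (without replicate 2) of 538 kept their sign. The causes were not tested.

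Against Atoh1-positive prosensory cells (116 and 81), a pseudocount of 1 CPM gave 53 and 37, no filter 2 and 0, and no replicate block 62 and 23. With 0 lower genes, 1667 genes still had an unadjusted p under 0.05 in either direction. For E14 against E16 (190 and 352), a pseudocount of 1 CPM gave 75 higher, the replicate number as a block 365 and 553, and the 2 ages alone 466 and 560. Leaving out a library gave 23 to 108 and 103 to 275. For E14 against P1 (724 and 1076), the values were 451 higher with a pseudocount of 1 CPM and 1091 higher with the 2 ages alone, and 292 to 690 and 618 to 1020 with a library left out. For the interaction (183 and 141), a pseudocount of 1 CPM gave 56 lower, no filter 18 and 1, no replicate block 46 and 30, and a library left out 62 to 187 and 24 to 129. Replicate numbers of different ages share only a number, and the correlations of same-numbered deviations ran from -0.098 to 0.042. The E14 share of hair cells was 0.728% and 0.622% after thinning, and 0.949% in replicate 2 with at least 2 Atoh1 UMIs.

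Over the 69 E14 hair cells a count of 0 allows up to 6.11 CPM, counting error only, so the absence of a gene below that level was not detectable.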
